A study of Mus musculus with 36 samples.

Results

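The IL-6 family was followed here through 9 genes measured in mouse knee cartilage, 4 ligands (Il11, Il6, Lif and Clcf1) and 5 receptor subunits (Cntfr, Il6st, Il11ra1, Osmr and Lifr). A gene was included when at least 1 row of the RNA count files carried a RefSeq transcript of that gene, and each gene is represented by its row with the highest mean count over 12 libraries. The 9 genes had 15 such rows among 30048 transcript rows, which cover 23070 genes with a symbol. The measure is the count of reads assigned to a transcript, given below as CPM (reads of a transcript per 1e6 reads) after scaling between libraries. Log2 fold changes and their SE are those of edgeR unless DESeq2 is named for them.

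Cytokines of this family signal through complexes that contain gp130, the product of Il6st, and a second subunit that sets which ligand is bound. IL-6 uses IL-6R, IL-11 uses IL-11RA, LIF uses LIFR, and oncostatin M uses OSMR or LIFR. CLCF1 binds CNTFR, a subunit held in the membrane by a lipid anchor, with gp130 and LIFR. The complexes activate JAK kinases and STAT3, whose target SOCS3 feeds back on gp130. In joints, members of the family are known for effects on matrix breakdown and bone turnover.

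The tissue was articular cartilage of C57BL/6J mice whose right knee was operated to destabilize the medial meniscus (DMM), which is used to model osteoarthritis after a joint injury. All mice were males operated at 12 weeks of age, and tissue was taken 4 or 12 weeks later. The left knee of the same mice, which was not operated, was the control, so each control knee came from an animal with an injured opposite joint. Each limb and week had 3 RNA libraries, with cartilage of 3 knees pooled in a library, and 3 DNA libraries from other mice read after bisulfite (BS) and after oxidative bisulfite (oxBS) conversion.

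Total counts per RNA library, in units of 1e6, ran from 27.7 to 62.7. All 12 markers of chondrocytes were detected, with a summed level of 2057 to 6949 CPM, and no marker of the other tissues searched was at 0 throughout. RNA of other tissues was abundant. The summed level of 15 skeletal muscle genes ran from 108 to 26236 CPM and differed between limbs at 4 weeks, at 7039 to 26236 CPM in control and 687 to 4255 CPM in DMM libraries. At 12 weeks it ran from 108 to 17401 CPM in control and from 700 to 13669 CPM in DMM libraries. Neutrophil genes summed to 8803 to 40737 CPM over all libraries. In tissue RNA of this kind, fewer cells of a type and less RNA per cell cannot be told apart.

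Il11 was the ligand with the clearest separation between limbs. IL-11 is a cytokine of connective tissue cells that acts on fibroblasts and bone cells. At 4 weeks the control libraries had 0.786, 0.380 and 0.362 CPM of Il11, and the DMM libraries had 3.03, 2.06 and 2.94 CPM. The 12-week control libraries had 0.654, 1.94 and 0.889 CPM, and the DMM libraries had 9.16, 11.0 and 10.2 CPM. At each week the lowest DMM library exceeded the highest control library. The counts behind these values were 19 to 33 in control and 89 to 102 in DMM libraries at 4 weeks, and 28 to 122 and 295 to 455 at 12 weeks.

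The log2 fold change of Il11 was 2.40 ± 0.40 (SE) at 4 weeks, or 5.26-fold, and 3.11 ± 0.39 at 12 weeks, or 8.63-fold. With edgeR, which adjusts p over all transcript rows of a week, neither difference passed 0.05 (adjusted p = 0.180 and 0.0643). With DESeq2 both passed (adjusted p = 6.55e-06 and 6.16e-13). The interaction of limb and week, the difference between the weeks in this fold change, was 0.71 ± 0.57 on the log2 scale. It did not pass (edgeR adjusted p = 0.555, DESeq2 adjusted p = 0.628). The exact permutation test over the libraries gave p = 0.1 at each week, the smallest value that 3 against 3 allows. Without control replicate 2 at 12 weeks, the control library with the most Il11, the edgeR adjusted p was 0.0213 and the log2 fold change 3.69, and without each of the other 12-week libraries the adjusted p was 0.0584 to 0.382. Adding the skeletal muscle score of each library as a covariate gave 3.0 at 4 weeks (adjusted p = 0.957) and 3.08 at 12 weeks (adjusted p = 0.116).

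Markers of tendon and bone cells moved with limb as Il11 did. All 6 tenocyte and ligament markers were higher in DMM at both weeks by their fitted fold change, with summed levels of 230 to 708 CPM in control and 980 to 1352 CPM in DMM libraries at 4 weeks, and 243 to 452 and 715 to 1395 CPM at 12 weeks. Of 9 osteoblast and osteocyte markers, 7 were higher in DMM at each week, with summed levels of 4026 to 6581 and 7598 to 8911 CPM at 4 weeks and 2700 to 4154 and 4983 to 6794 CPM at 12 weeks. Of 10 synovial and stromal fibroblast markers, 8 were higher in DMM at each week, with summed levels that overlapped, at 7146 to 14956 CPM in control and 8591 to 11927 CPM in DMM libraries at 4 weeks and 5719 to 16827 and 10863 to 17712 CPM at 12 weeks. All 12 chondrocyte markers were higher in DMM at 12 weeks, against 3 of 12 at 4 weeks. The part of these cells in the Il11 difference was not tested.

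The 300 bases around the Il11 start are shown because 14 of the 32 cytosines read at 12 weeks, described below, lie in them. They lie on the minus strand at chr7:4778092-4778391 of GRCm38.p6, with 250 bases before the start of transcript NM_008350, and are taken from RefSeq. Capitals mark the 12 CpG dinucleotides, of 13 in the window, whose cytosines were covered in all 6 oxBS libraries at 12 weeks. The start region of Osmr, on the minus strand at chr15:6874264-6874563, is set beside it as an unmethylated one, with 16 of its 22 CpG dinucleotides covered. The median over the 32851 start regions of the same table is 7 CpG dinucleotides.
Il11: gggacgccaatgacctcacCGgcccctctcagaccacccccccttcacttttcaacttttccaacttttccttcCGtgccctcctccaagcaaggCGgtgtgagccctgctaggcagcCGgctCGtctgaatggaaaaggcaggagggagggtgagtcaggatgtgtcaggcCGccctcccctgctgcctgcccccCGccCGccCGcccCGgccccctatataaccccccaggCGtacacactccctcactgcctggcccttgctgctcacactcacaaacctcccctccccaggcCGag
Osmr: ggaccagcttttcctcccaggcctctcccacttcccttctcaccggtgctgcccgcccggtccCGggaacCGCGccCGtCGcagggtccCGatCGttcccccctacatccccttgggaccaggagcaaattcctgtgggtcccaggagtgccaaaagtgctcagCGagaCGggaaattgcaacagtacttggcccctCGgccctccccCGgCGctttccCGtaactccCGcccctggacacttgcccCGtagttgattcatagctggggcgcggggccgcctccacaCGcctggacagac

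Start regions were given for 7 of the 9 members at the start of the row used, and not for Clcf1 and Cntfr. The letters TGANTCA, which AP-1 factors bind and which read the same on both strands, occurred in 4 of the 7, in Il11, Il6, Lif and Osmr, and in 7.81% of all start regions. The letters TTCNNNGAA, which STAT factors bind, occurred in none of the 7 and in 8.3% of all. The matches are shown with capitals on the 7 letters and up to 10 bases on each side. They begin at base -98 for Il11, -249 for Il6, -228 for Lif and 3 for Osmr, counted from the first transcribed base as 0, and the sites lie at chr7:4778223-4778249, chr5:30012864-30012881, chr11:4257330-4257356 and chr15:6874294-6874320.
Il11: ggagggagggTGAGTCAggatgtgtca
Il6: cTGAGTCActtttaaaga
Lif: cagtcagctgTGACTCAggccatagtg
Osmr: gccccgtagtTGATTCAtagctggggc

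The remaining ligands were low and overlapped between limbs at both weeks. Il6, which encodes the cytokine that names the family, had only 2 to 22 counts per library. Its levels were 0.119, 0.280 and 0.0761 CPM in control and 0.356, 0.0463 and 0.337 CPM in DMM libraries at 4 weeks. At 12 weeks they were 0.280, 0.350 and 0.485 CPM in control and 0.210, 0.186 and 0.315 CPM in DMM libraries. The log2 fold changes of Il6 were 0.58 ± 0.79 and -0.61 ± 0.46, and neither passed the test at these low counts.

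Lif, encoding leukaemia inhibitory factor, had 1.64 ± 0.37 CPM (SD, n = 3) in control and 1.38 ± 0.64 CPM in DMM libraries at 4 weeks. At 12 weeks Lif had 1.76 ± 0.46 and 1.45 ± 0.30 CPM. Its lowest library was DMM replicate 3 at 4 weeks, with 0.644 CPM against 1.10 to 2.24 CPM elsewhere. Clcf1 had 1.86 ± 0.28 CPM in control and 1.31 ± 0.34 CPM in DMM libraries at 4 weeks, and 1.82 ± 0.69 and 2.24 ± 0.49 CPM at 12 weeks. The log2 fold changes of Lif (-0.26 ± 0.43 and -0.27 ± 0.32) and of Clcf1 (-0.52 ± 0.33 and 0.29 ± 0.34) did not pass the test.

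**Figure D1:**
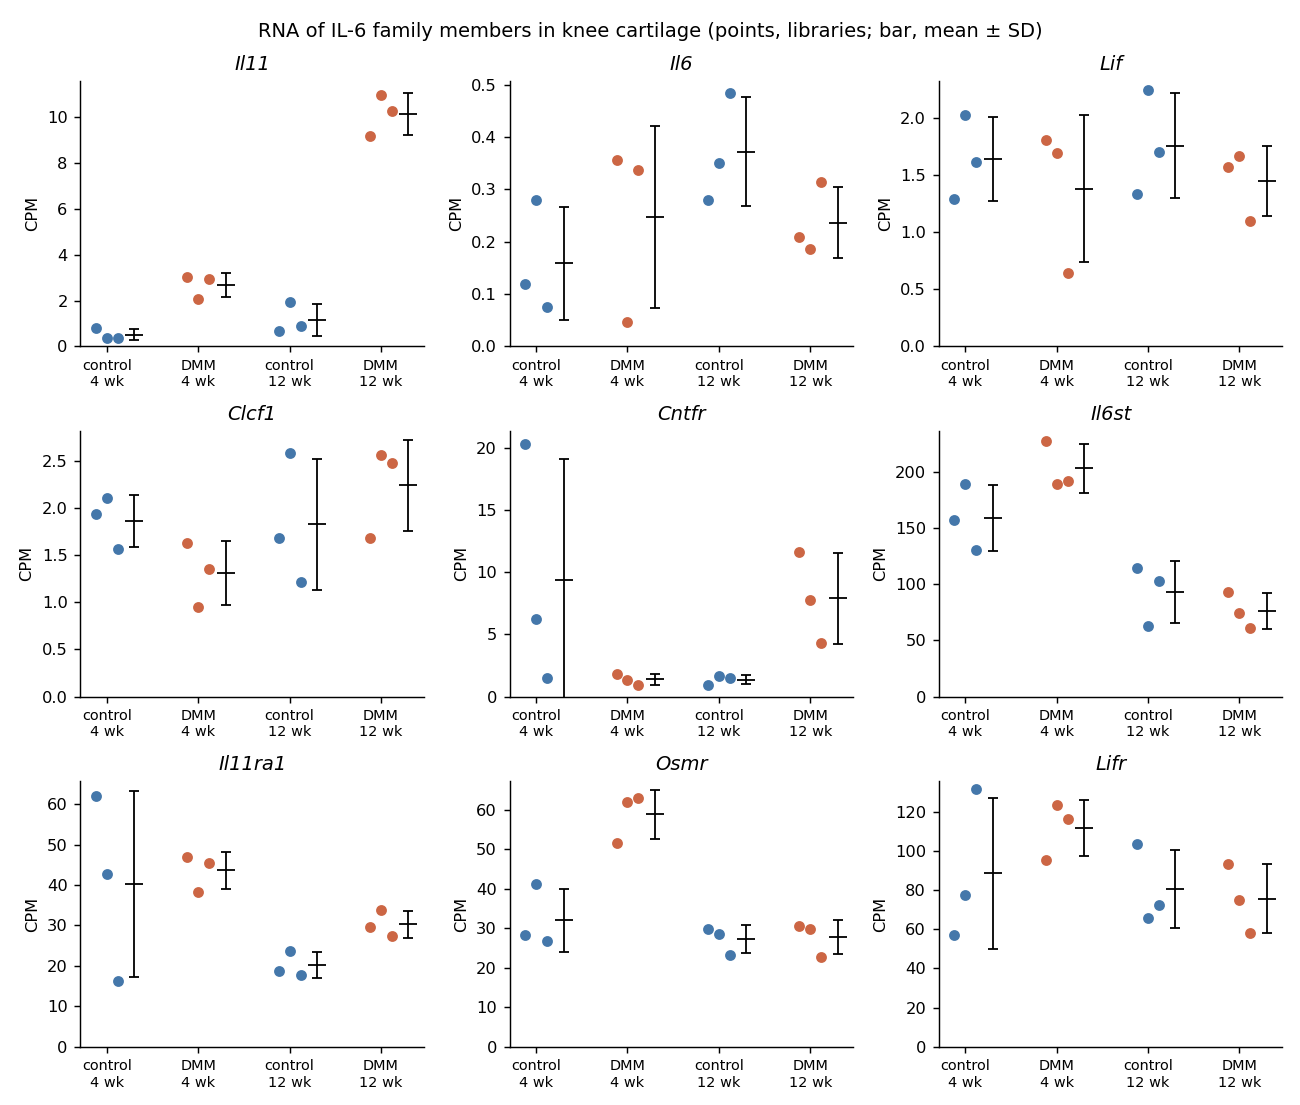
CPM of the 9 members in each of 12 RNA libraries, by limb (blue, control and orange, DMM) and week, with the mean ± SD of 3 libraries beside the points (the lower bar of Cntfr in 4-week control libraries ends at the axis). Il11 is higher in every DMM library than in every control library of its week, whereas Cntfr spans 1.5 to 20.3 CPM in control libraries at 4 weeks, overlapping DMM, and is higher in all DMM libraries at 12 weeks.

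Il6st encodes gp130, the chain that the receptors share. The control libraries had 157, 189 and 131 CPM of Il6st at 4 weeks and the DMM libraries 228, 190 and 192 CPM. At 12 weeks the values were 115, 62.4 and 103 CPM in control and 93.1, 74.3 and 60.7 CPM in DMM libraries. The limbs did not overlap at 4 weeks, but the nearest libraries were 189 and 190 CPM, and the log2 fold change of 0.35 ± 0.21 did not pass the test (edgeR adjusted p = 0.448). The 12-week value was -0.28 ± 0.25.

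Osmr, the oncostatin M receptor subunit, differed between limbs at 4 weeks only by DESeq2. The control libraries had 28.3, 41.2 and 26.7 CPM and the DMM libraries 51.6, 62.1 and 62.9 CPM, with no overlap. At 12 weeks control libraries had 29.9, 28.6 and 23.2 CPM and DMM libraries 30.7, 29.7 and 22.8 CPM, nearly the same range. The log2 fold change was 0.87 ± 0.22 at 4 weeks (edgeR adjusted p = 0.252, DESeq2 adjusted p = 0.0283) and 0.04 ± 0.17 at 12 weeks. The difference between weeks, the interaction of limb and week, was -0.84 ± 0.28 on the log2 scale, with an unadjusted p = 0.0114 and an adjusted p = 0.405 in edgeR, so it did not pass. With the muscle score as a covariate the value at 4 weeks was 0.58.

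Il11ra1, which encodes the IL-11-binding subunit, had 62.0, 42.7 and 16.2 CPM in control and 46.9, 38.3 and 45.5 CPM in DMM libraries at 4 weeks. The control libraries alone spanned the DMM range. At 12 weeks it had 18.8, 23.8 and 17.8 CPM in control and 29.7, 33.9 and 27.3 CPM in DMM libraries, without overlap. The log2 fold change was 0.11 ± 0.41 at 4 weeks and 0.60 ± 0.16 at 12 weeks (edgeR adjusted p = 0.215, DESeq2 adjusted p = 0.0406). Il11ra1 has near-identical copies in the mouse genome whose reads could be assigned to either, and the copy with a row of its own, Il11ra2, had 0 or 1 counts in each library.

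Lifr had 56.8, 77.2 and 131 CPM in control and 95.4, 123 and 116 CPM in DMM libraries at 4 weeks. The 12-week values were 103, 65.7 and 72.2 CPM in control and 93.2, 75.1 and 58.1 CPM in DMM libraries. The limbs overlapped at both weeks, with log2 fold changes of 0.32 ± 0.31 and -0.08 ± 0.23. A second Lifr transcript, NM_001113386, gave 0.39 and -0.05.

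Cntfr went in opposite directions at the 2 time points. At 4 weeks the control libraries had 20.3, 6.25 and 1.5 CPM of Cntfr and the DMM libraries 1.81, 1.37 and 0.951 CPM. At 12 weeks the control libraries had 0.958, 1.67 and 1.46 CPM and the DMM libraries 11.6, 7.72 and 4.31 CPM. The limbs overlapped at 4 weeks through control replicate 3, and not at 12 weeks, when all DMM libraries lay higher. The log2 fold change was -2.75 ± 0.82 at 4 weeks (edgeR adjusted p = 0.273, DESeq2 adjusted p = 0.00531) and 2.55 ± 0.40 at 12 weeks (edgeR adjusted p = 0.0790, DESeq2 adjusted p = 1.51e-07). The Cntfr row with the lowest mean count (52.3) had -2.44 at 4 weeks, which did not pass in DESeq2 (adjusted p = 0.0505). At 12 weeks that row had 2.76, which passed in DESeq2 (adjusted p = 0.000117).

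The interaction of limb and week for Cntfr was 5.30 ± 1.02 on the log2 scale. It did not pass in edgeR (unadjusted p = 0.000211, adjusted p = 0.405) and passed in DESeq2 (adjusted p = 8.70e-05), which called 0.0613% of all rows against none in edgeR. These values moved with the 4-week control libraries. Without control replicate 1 the log2 fold change at 4 weeks was -1.51, and without control replicate 3 it was -3.28 with an edgeR adjusted p of 0.0262, against 0.170 to 0.887 without each of the other libraries. Without that replicate 3 the adjusted p of the interaction was 0.0206. At 12 weeks the edgeR adjusted p was 0.0352 without control replicate 2 and 0.0278 without DMM replicate 3, and 0.248 to 0.454 without each of the others.

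Skeletal muscle RNA moved with Cntfr at 4 weeks. Control replicate 1, with the most Cntfr, had 26236 CPM of muscle genes, and control replicates 2 and 3 had 7992 and 7039 CPM, while the DMM libraries had 4255, 2014 and 687 CPM, in the same order as their Cntfr. With the muscle score as a covariate the log2 fold change of Cntfr at 4 weeks was 0.22, so that limb and muscle RNA cannot be told apart there. Among 12-week control libraries, muscle genes summed to 108, 2170 and 17401 CPM where Cntfr had 0.958, 1.67 and 1.46 CPM. Among 12-week DMM libraries they summed to 13669, 700 and 1053 CPM where Cntfr had 11.6, 7.72 and 4.31 CPM, so that the 6 libraries were not ordered by muscle RNA, although the one with the least (control replicate 1) had the least Cntfr and the DMM library with the most had the most. The 12-week log2 fold change was 2.38 with the covariate (edgeR adjusted p = 0.116). It was 2.18 (adjusted p = 0.670) when control replicate 3 and DMM replicate 1, the library of each limb richest in muscle RNA, were left out. Chondrocyte RNA also followed Cntfr within each limb at 4 weeks. It summed to 6372, 4825 and 2842 CPM in control and 5106, 3409 and 2528 CPM in DMM libraries. At 12 weeks it had 2057 to 4501 CPM in control and 4749 to 6949 CPM in DMM libraries, without overlap. Within a limb it was not in the order of Cntfr at that week. The part of chondrocytes in the Cntfr difference was not tested.

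**Figure D2:**
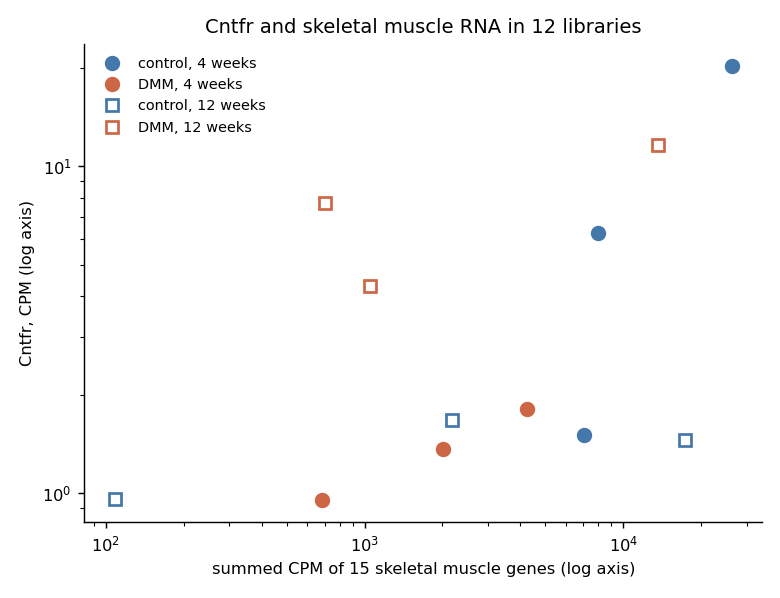
Cntfr (CPM, log axis) against the summed CPM of 15 skeletal muscle genes (log axis) in 12 libraries, by limb (colour) and week (filled circles, 4 weeks and open squares, 12 weeks). The 4-week libraries run from DMM at the lower left to control replicate 1 at the upper right, with control replicate 3 (7039 CPM of muscle RNA, 1.5 CPM of Cntfr) below DMM replicate 1, and the 12-week control library at 17401 CPM of muscle RNA stays at 1.46 CPM of Cntfr while the 12-week DMM library at 13669 CPM has 11.6 CPM.

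Over the 9 members, edgeR called 0 at 4 weeks, where 0.0757% of all rows were called, and 0 at 12 weeks, where 0.00476% were. At an unadjusted p under 0.05 there were 3 members at each week, Il11, Cntfr and Osmr at 4 weeks and Il11, Cntfr and Il11ra1 at 12 weeks, against 13.4% and 16% of all genes. DESeq2 called the same 3 members at each week, where it called 3.44% and 4.24% of all rows. The limbs did not overlap for 3 of 9 members at each week, all of them higher in DMM, against 21.3% and 18.5% of genes that did not overlap in either direction. All 9 passed the filter on low counts in edgeR, and DESeq2 gave Il6 no adjusted p at 12 weeks.

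**Figure D3:**
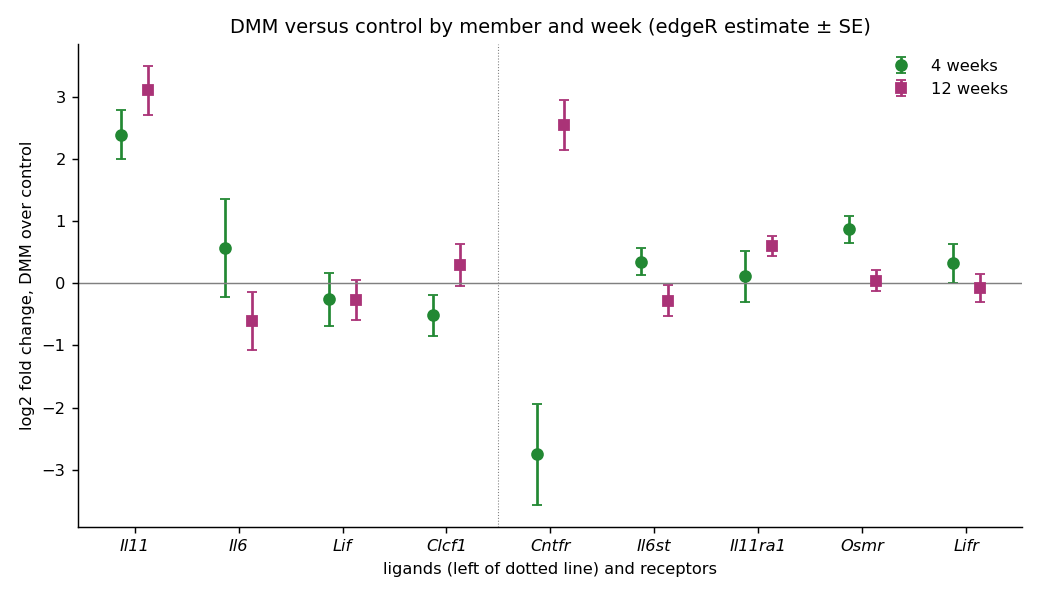
Log2 fold change of DMM over control (edgeR estimate ± SE) for the 4 ligands and 5 receptors at 4 weeks (green circles) and 12 weeks (purple squares). Il11 lies above 0 at both weeks, at 2.40 and 3.11, and Cntfr passes from -2.75 to 2.55, while Lif, Clcf1, Il6st and Lifr stay within 0.6 of 0.

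The weeks were also compared within each limb. In DMM libraries, edgeR called 4 members between 4 and 12 weeks, where 23.6% of all rows were called, and DESeq2 called the same 4, where it called 29.1%. Il11 rose by 1.96 ± 0.39 (adjusted p = 0.00662) and Cntfr by 2.56 ± 0.72 (adjusted p = 0.0258) on the log2 scale. Il6st fell by 1.37 ± 0.24 (adjusted p = 0.00463) and Osmr fell by 1.04 ± 0.20 (adjusted p = 0.00586), which took Il6st from 203 ± 21 to 76.0 ± 16.2 CPM and Osmr from 58.9 ± 6.3 to 27.8 ± 4.3 CPM. The Cntfr call was lost without DMM replicate 1 or 2 of 12 weeks (adjusted p = 0.0799 and 0.0558) or DMM replicate 2 or 3 of 4 weeks (0.0846 and 0.117). In the Cntfr row with the lowest mean count the edgeR adjusted p was 0.0529. The mice of both weeks were operated at the same age, so time after surgery and age cannot be told apart.

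In control libraries, edgeR called 1 member, Cntfr, where 5.69% of all rows were called. It fell by 2.73 ± 0.72 on the log2 scale from 4 to 12 weeks (adjusted p = 0.0470), and the call was lost on leaving out any 1 of 10 of the 12 libraries. Without control replicate 1 of 4 weeks it fell by 1.49 with an adjusted p of 0.218, and the call was kept only without control replicate 3 of 4 weeks or DMM replicate 3 of 12 weeks. In the Cntfr row with the lowest mean count the edgeR adjusted p was 0.0516. DESeq2 called Il11, Il6st and Il11ra1 as well, at log2 fold changes of 1.24, -0.76 and -0.98, where it called 13.9% of all rows. None of the other members, Il6, Lif, Clcf1, Osmr and Lifr, passed by either tool in control libraries, and Clcf1, Il6, Lif, Il11ra1 and Lifr did not in DMM libraries. No difference between members in their change with time was tested. The interaction of limb and week, which concerns 1 gene at a time, was tested for all 9 members. EdgeR called 0 of them, where it called 0% of all rows, and DESeq2 called 1, Cntfr, where it called 0.0613%.

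Levels can be compared between genes per kilobase of transcript. On that scale (CPM per kilobase, mean ± SD, n = 3), the control libraries at 4 weeks had 29.2 ± 5.3 of Il6st, 21.8 ± 12.4 of Il11ra1, 9.15 ± 3.99 of Lifr, 6.63 ± 1.64 of Osmr and 4.73 ± 4.94 of Cntfr, and neighbours in this order overlapped. The ligands were lower, at 1.0 ± 0.15 for Clcf1, 0.409 ± 0.092 for Lif, 0.262 ± 0.123 for Il11 and 0.139 ± 0.094 for Il6. Of all neighbours in that group, only Clcf1 and Lif did not overlap. In DMM libraries at 12 weeks Il11ra1 led with 16.4 ± 1.8, followed by Il6st with 13.9 ± 3.0 in an overlapping range, and Il11 stood at 5.20 ± 0.46, within the range of Osmr at 5.74 ± 0.89. Il11 took place 8 of 9 in control libraries at 4 weeks and place 5 of 9 in DMM libraries at 12 weeks.

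Of 8 other ligand genes, 5 were tested at 4 weeks and 6 at 12 weeks. EdgeR called 0 of them at either week, where it called 0.0757% and 0.00476% of all rows. DESeq2 called 0 at 4 weeks and 1, higher in DMM, at 12 weeks, where it called 3.44% and 4.24% of all rows. At an unadjusted p under 0.05 in edgeR, 2 were higher and 1 lower at 12 weeks, against 16% of all genes in either direction. Ctf1, encoding cardiotrophin 1, was 1.07 ± 0.45 higher and Ebi3, a subunit of IL-27 and IL-35, 0.51 ± 0.21 lower on the log2 scale at 12 weeks (unadjusted p = 0.0442 and 0.0417 in edgeR), and neither passed after adjustment.

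Osm, encoding oncostatin M, the ligand of OSMR, had 1.62 to 5.81 CPM in control and 2.85 to 3.94 CPM in DMM libraries at 4 weeks, and 7.57 to 9.97 and 6.73 to 8.02 CPM at 12 weeks. Il6ra, encoding the IL-6-binding subunit, had 13 to 15.8 CPM in control and 7.58 to 12.1 CPM in DMM libraries at 4 weeks, and 27.2 to 37.2 and 24.7 to 27.7 CPM at 12 weeks. Both genes are expressed by leukocytes. At 4 weeks all 7 tested macrophage markers were higher and 4 of 7 tested neutrophil markers lower in DMM libraries. At 12 weeks all 7 tested neutrophil markers and all 7 tested macrophage markers were lower in DMM libraries, and the part of these cells in the levels of Osm and Il6ra was not tested. Neither gene passed the test between limbs at either week. Between 4 and 12 weeks Il6ra rose by 1.18 ± 0.19 in control and 1.44 ± 0.19 in DMM libraries on the log2 scale (edgeR adjusted p = 0.00916 and 0.00315). Osm rose by 1.24 ± 0.36 in DMM libraries (edgeR adjusted p = 0.0277), and in control libraries its log2 difference of 1.31 ± 0.35 passed in DESeq2 (adjusted p = 0.00749) and not in edgeR (adjusted p = 0.0501). Summed neutrophil RNA ran from 8803 to 25351 CPM at 4 weeks and from 24052 to 40737 CPM at 12 weeks in control libraries, and from 12887 to 19215 and from 19312 to 31854 CPM in DMM libraries, and its part in these changes was not tested.

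Downstream of the receptors, 11 JAK, STAT and adaptor genes were tested and 0 were called by edgeR or DESeq2 at either week. EdgeR called 0.0757% and 0.00476% of all rows at the 2 weeks, and DESeq2 3.44% and 4.24%. The median log2 fold change of the 11 genes was -0.23 at 4 weeks and -0.21 at 12 weeks, beside -0.02 and 0.02 over all genes. At an unadjusted p under 0.05 in edgeR, 4 were lower and 0 higher at 12 weeks, against 16% of all genes in either direction. The 4 included the kinases Jak1 (-0.55 ± 0.23) and Tyk2 (-0.48 ± 0.15) and the protease Adam10 (-0.69 ± 0.21), which sheds receptor ectodomains.

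Of 10 feedback inhibitors, 0 were called by edgeR at either week, and DESeq2 called 1 higher and 1 lower at 4 weeks and 1 higher at 12 weeks, where it called 3.44% and 4.24% of all rows. Socs3, the inhibitor that acts on gp130, had 25.5, 35.6 and 16.0 CPM in control and 25.6, 23.3 and 19.8 CPM in DMM libraries at 4 weeks. The 12-week values were 26.2, 32.2 and 22.8 CPM in control and 49.7, 59.1 and 35.8 CPM in DMM libraries, without overlap. Its log2 fold change was -0.17 ± 0.29 and 0.84 ± 0.21 (DESeq2 adjusted p = 0.823 and 0.0187). At 4 weeks Socs2 was 0.78 ± 0.21 higher and Cish, both inhibitors of STAT5 signals, 1.44 ± 0.38 lower on the log2 scale (DESeq2 adjusted p = 0.0376 and 0.0133).

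Of 22 response genes, 21 were tested at each week. At 12 weeks 16 were higher and 5 lower in DMM libraries by their fitted fold change, with a median of 0.48 beside 0.02 over all genes, and at 4 weeks 9 were higher and 12 lower, with a median of -0.12 beside -0.02. EdgeR called 1 of them, Ptgs2 at 12 weeks, where it called 0.00476% of all rows. DESeq2 called 3 higher and 1 lower at 4 weeks and 4 higher at 12 weeks, beside 3.44% and 4.24% of all rows. Ptgs2, encoding cyclooxygenase 2, was 1.83 ± 0.15 higher (adjusted p = 0.0329), at 5.66 ± 0.54 CPM in control and 20.01 ± 1.07 CPM in DMM libraries, and its 4-week log2 fold change of 1.14 ± 0.26 passed in DESeq2 (adjusted p = 0.00726) and not in edgeR (adjusted p = 0.246). Mmp3, encoding stromelysin 1, had log2 fold changes of 3.68 ± 0.74 at 4 weeks and 2.13 ± 0.43 at 12 weeks in edgeR (adjusted p = 0.203 and 0.184), which passed in DESeq2 (adjusted p = 1.45e-06 and 8.50e-06). Timp1, an inhibitor of matrix metalloproteinases, had a log2 fold change of 1.18 ± 0.33 at 4 weeks, which passed in DESeq2 (adjusted p = 0.0359) and not in edgeR (adjusted p = 0.263). Lbp, encoding the lipopolysaccharide-binding protein, had 0.68 ± 0.16 at 12 weeks (DESeq2 adjusted p = 0.00843, edgeR adjusted p = 0.211). Serpina3n, encoding an acute-phase inhibitor of serine proteases, had 1.10 ± 0.32 at 12 weeks (DESeq2 adjusted p = 0.0211, edgeR adjusted p = 0.233), without overlap, and -0.47 ± 0.38 at 4 weeks. Pim1, a kinase gene induced by STAT3 and STAT5, was 1.64 ± 0.28 lower at 4 weeks (DESeq2 adjusted p = 2.20e-05). These genes answer to many signals other than this family, and several, such as Mmp3 and Ptgs2, are known from osteoarthritis generally.

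DNA methylation (5mC, read from oxBS libraries) was compared in windows of 1000 bp on each side of the transcript start, over CpG cytosines with at least 10 reads in all 6 libraries of the week. The Il11 window did not overlap between limbs at 12 weeks, but its difference did not pass the test. The mean level of its 32 cytosines was 9.72%, 10.5% and 11.9% in control and 6.52%, 5.93% and 4.96% in DMM libraries, with 807 to 2554 reads per library. By this mean all 3 DMM libraries were below all 3 control libraries, a drop of 4.88 points. The separation depended on the cytosines counted. Over the 27 also covered in every BS library, the oxBS means overlapped between limbs. They were 7.82%, 5.40% and 10.3% in control and 5.46%, 5.89% and 4.73% in DMM libraries. The 27 leave out the cytosines at bases -40, -45, -49, -53 and -77, which had 10 to 36 reads. Pooled reads of these 27 gave 10.3%, 7.13% and 12.7% in control and 6.49%, 6.33% and 5.71% in DMM libraries, without overlap. Over all 32 cytosines the log2 odds ratio was -0.86 ± 0.23 (edgeR, unadjusted p = 0.000563, adjusted p = 0.0560), just above 0.05. In that week 0.891% of all windows were called and 17.6% did not overlap. The adjusted p was 0.00964 when control replicate 2 and DMM replicate 1, whose titles follow another style than the rest, were left out, a choice made after seeing the data. It was 0.0386 without control replicate 2 alone and 0.1 to 0.357 without each of the other libraries.

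At 4 weeks the Il11 window, with 31 cytosines, had 8.52%, 4.16% and 5.34% in control and 5.27%, 4.02% and 4.78% in DMM libraries, which overlapped. Its adjusted p was 1.0 in a week where 0% of all windows were called and 9.31% did not overlap. Thus the RNA of Il11 separated the limbs at both weeks, whereas the mean methylation over all 32 cytosines separated them at 12 weeks, in other mice. The cytosines covered differed between weeks. Those at bases -40, -45, -49, -53 and -77, with 10 to 36 reads, were covered at 12 weeks only. The difference of methylation between weeks was not tested.

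The methylated cytosines of Il11 lay near the start. Split by distance after the values were seen, the 15 cytosines within 250 bp of the start had 19.3%, 21.9% and 22.8% in control and 12.0%, 11.4% and 9.84% in DMM libraries at 12 weeks. The 17 cytosines farther away had 0.394% to 2.21% in control and 0.665% to 1.64% in DMM libraries. The near set includes the cytosines at bases -40, -45, -49, -53 and -77, with 10 to 36 reads. The 27 cytosines whose oxBS means overlapped between limbs leave these out. The near cytosines without them were not compared. All 15 near cytosines had a lower mean in DMM, and for 5 of them no DMM library reached the lowest control library. Neighbouring cytosines can lie on the same reads, so these counts are not of separate measurements. Of the 5, the ones at bases -40, -49 and -77 had 10 to 36 reads. The cytosines covered were not the same at 4 weeks. Of those 5, the ones at bases -17 and -131 were covered then, and the ones at -40, -49 and -77 were not. Of 13 near cytosines at 4 weeks, 8 had a lower and 4 a higher mean in DMM. For 0 of them all DMM libraries lay below, and for 1, at base -41, all lay above (2.604% in control and 10.7% in DMM libraries). At 12 weeks the widest difference was at the base 77 before the start, chr7:4778218, at 10 to 36 reads. It had 40.7% ± 13.7 in control and 14.1% ± 7.4 in DMM libraries (SD, n = 3). This CpG is the next one downstream of the TGAGTCA match shown above.

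**Figure D4:**
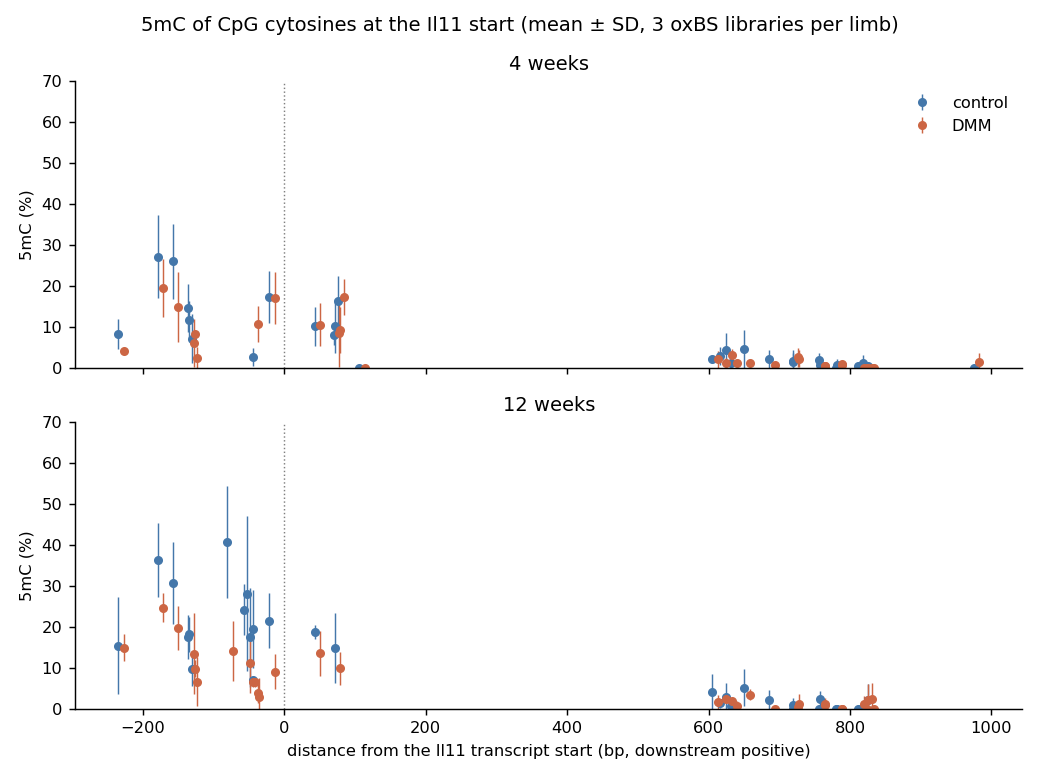
Percentage of 5mC at each covered CpG cytosine of Il11 by distance from the transcript start in bp, at 4 weeks (top) and 12 weeks (bottom), as the mean ± SD of 3 oxBS libraries per limb (blue, control and orange, DMM, drawn slightly apart). At 12 weeks the 15 cytosines within 250 bp lie lower in DMM and those from 609 bp downstream lie near 0 in both limbs.

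Cntfr had 13 covered cytosines at each week, all over 250 bp from the start of the row used. They had 15.8%, 17.3% and 15.7% in control and 21.5%, 22.8% and 16.4% in DMM libraries at 4 weeks, and 12.9%, 16.2% and 12.4% in control and 20.1%, 15.2% and 19.4% in DMM libraries at 12 weeks. The limbs overlapped at both weeks, and the log2 odds ratios of 0.57 ± 0.23 and 0.54 ± 0.25 did not pass (edgeR adjusted p = 1.0 and 0.370). The RNA of Cntfr was lower in DMM at 4 weeks and higher at 12 weeks, whereas the methylation was higher in DMM at both by these estimates. A second Cntfr row, with a mean count of 212.25 against 212.333, starts farther downstream, at chr4:41695453. The region around that start was not examined.

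The window of Lif was the most methylated of the members, with no covered cytosine within 250 bp of the start of the row used. A second Lif row, with a mean count of 66.7 against 68.75, starts farther downstream, at chr11:4266796. The region around that start was not examined. The window used had 71.9%, 66.0% and 65.3% in control and 65.8%, 59.2% and 63.4% in DMM libraries at 4 weeks, over 12 cytosines. At 12 weeks it had 59.8%, 66.2% and 63.0% in control and 59.6%, 57.2% and 59.7% in DMM libraries, over 8. At 12 weeks the limbs just failed to overlap, and neither difference passed (edgeR adjusted p = 1.0 and 0.793). Il6 had 4 cytosines at 12 weeks, at 2.52% to 4.03% in control and 2.66% to 7.49% in DMM libraries. Clcf1, Il6st, Il11ra1 and Osmr were nearly unmethylated, with group means between 0.278% and 1.01%, and of these Clcf1 at 4 weeks did not overlap between limbs (0.855% to 1.10% in control and 0.661% to 0.836% in DMM libraries). Lifr had no covered cytosine in the window.

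Hydroxymethylation (5hmC) was taken as the BS percentage minus the oxBS percentage, averaged over a window, and no member separated the limbs at either week. The Il11 window had 0.232% to 2.57% in control and -0.780% to 0.831% in DMM libraries at 4 weeks, and -0.430% to 2.35% and -1.70% to 0.273% at 12 weeks. BS and oxBS reads are counted separately, so a difference can be negative. The deposited BS data of DMM replicate 1 at 12 weeks carry another replicate number in their name than in their label, which was followed here, and the 12-week 5hmC values depend on it. The Cntfr window had 3.0% to 8.79% in control and 6.21% to 11.3% in DMM libraries at 4 weeks. The smallest exact permutation p over the members was 0.2.

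The genes whose log2 CPM was most like that of Il11 over 12 libraries included Muc1 (Pearson r = 0.97) and Gna14 (r = 0.95). For Cntfr they were Hspb1 (r = 0.94), Irx3 (r = 0.94) and Furin (r = 0.93), for Il6st Ablim1 (r = 0.996), Efr3a (r = 0.97) and Ahr (r = 0.97), and for Osmr Vwa5a, Epb41l2 and Rbm41 (r = 0.95 each). Il11ra1 was most like Dusp14, Rras and Cyb5r3 (r = 0.97 each) and Lifr was most like Zfp800 (r = 0.96), Cdh11 (r = 0.95) and Dcstamp (r = 0.93). Clcf1 was most like Prg4 (r = 0.94), Pcbp3 and Slc1a1 (r = 0.92 each), Il6 was most like Fndc7 (r = 0.95) and Lif was most like Gopc (r = 0.88). The libraries share limb, week and tissue makeup, so these coefficients are descriptions. Among the members, Il6st and Osmr were the most alike (r = 0.76), and Il11 had r = 0.20 with Il11ra1 and -0.45 with Il6st. Within groups, as deviations from the group means, Cntfr and Il11ra1 had r = 0.88.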

How the data were processed

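Each sample was placed in its limb, week and replicate by its labels. For RNA, the authors used FLEXBAR for trimming, STAR for alignment and featureCounts for assignment to RefSeq transcripts, and deposited raw counts. The strand setting is not given in the sources used here, and the paper (SMART-Seq v4 and Nextera XT) and the labels (poly(A) TruSeq) describe different libraries. For DNA, the deposited files give the coverage of each CpG cytosine as counts of reads and the percent of reads with C and with T. The submitters' processing notes name CASAVA 2.17 and Bismark, and mm10, the build of GRCm38. Only cytosines with at least 10 reads were deposited. Rows of 1 gene share reads, and 17 rows took their symbol from a supplementary table of the study.

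The members, gene lists and tests were chosen with earlier results of these data known. All 9 members are named, and the 3 most similar genes of a member by Pearson's r. List genes are named only at an unadjusted p under 0.05 or a DESeq2 call, besides Osm, Il6ra and Socs3. At most 5 are named per list, except among the response genes, where more are named. Some genes that this rule selects are not reported here.

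Counts were tested within each week with edgeR 4.0.16 in R 4.3.3 (robust quasi-likelihood test, TMM, filterByExpr, Benjamini-Hochberg adjustment over all rows, 0.05), and the interaction and the weeks in a fit of all 12 libraries. CPM were scaled by TMM, with a prior count of 2 for log2 values. Windows with at least 3 cytosines were tested with edgeR on methylated and unmethylated reads. Single values were compared by two-sided exact permutation tests. DESeq2 1.42.0, limma 3.58.1 on mean percentages, other normalization, filters and windows, a coverage of 20, the replicate block and each library left out were alternatives. A skeletal muscle covariate, the muscle-rich libraries left out and 2 DNA libraries left out were added after seeing the data. The tests were tested on simulated data. For promoters, a first simulation with an assumed, wider spread between libraries recovered no changed promoter, and its noise model was revised 2 times, last to a spread estimated from the libraries, with which most were recovered. Libraries of a group came from separate pools of 3 mice, and p-values measure the spread between pools. Read counts include PCR copies.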

Additional observations from a re-analysis of the deposited data

Results flagged for a closer look

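The difference between limbs in Cntfr was not the same at 4 and 12 weeks by the DESeq2 test of the interaction (adjusted p = 8.70e-05), which was 5.30 on the log2 scale, but edgeR did not call it (adjusted p = 0.405). The fitted direction was lower in DMM at 4 weeks, where control replicate 3 overlapped the DMM libraries, and higher at 12 weeks. The summed skeletal muscle RNA was lower in DMM at 4 weeks and overlapped at 12 weeks, and with it as a covariate the interaction was 4.21 (edgeR adjusted p = 0.918) and the 4-week log2 fold change turned from -2.75 to 0.22, so that limb and muscle RNA cannot be told apart at that week. Groups of 3 libraries were not searched for outlying libraries.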

How the results depend on the processing

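The number of members called between limbs was 0 of 9 in edgeR at both weeks. At 4 weeks it was 3 with DESeq2, 1 with the replicate block (Il11, adjusted p = 0.0209), and 0 to 1 with a library left out. At 12 weeks it was 3 with DESeq2, 2 without the filter on low counts, 2 with the replicate block (Il11, 0.0230, and Cntfr, 0.0472) and 0 to 2 with a library left out. The interaction had 1 call with DESeq2 and 0 to 1 with a library left out. For control libraries between weeks there were 4 calls with DESeq2, 0 with median-of-ratios factors, 0 without the filter and 0 to 3 with a library left out, and for DMM libraries 3 to 5. One promoter, Cntfr at 4 weeks, was called with the replicate block (adjusted p = 0.0448), and Il11 at 12 weeks was called in 1 of 6 fits with a library left out (0 to 1 calls) and with 2 libraries of another title style left out (1 call). Same-numbered libraries did not deviate together (r = -0.54 to 0.36), so the numbers were not taken as pairs.

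Over all members and alternatives, 799 of 888 values kept direction and call, and 47 changed sign. Sign changes among the DMM and control contrasts were Lif at 4 weeks (-0.50 to 0.082 with a library left out, positive without DMM replicate 3, and 0.28 with the muscle covariate), Cntfr at 4 weeks (0.22 with the covariate), Il11ra1 at 4 weeks (-0.28 without control replicate 3 to 0.55 without control replicate 1), Lifr at 4 weeks (-0.41 with the covariate), Osmr at 12 weeks (-0.083 to 0.17 with a library left out, with -0.083, -0.050 and -0.014 without control replicate 3, DMM replicate 1 and DMM replicate 2, and -0.15 without the muscle-rich libraries), Lifr at 12 weeks (-0.27 to 0.12 with a library left out, with 0.12 without control replicate 1 and 0.087 without DMM replicate 3) and the Il11 promoter at 4 weeks (log2 odds ratio, -0.62 to 0.032 with a library left out, positive without control replicate 1). The cause was not tested. Il11 kept its direction in every RNA alternative, at 2.19 to 3.0 at 4 weeks and 2.81 to 3.69 at 12 weeks. Low counts limited Il6.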
